A study of Mus musculus with 3 samples.

Results

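The Smoc2-type duct cells of the mouse lacrimal gland (LG) were a small group of keratin-positive epithelial cells, chosen by their counts of a few genes. The name is shorthand for the gate, since Smoc2 was not counted in every member and Sfn was counted in more of the male members. A barcode of the called-cell matrices was kept with over 500 UMIs (unique molecular identifiers, each standing for 1 captured RNA molecule), over 200 genes and under 15% mitochondrial UMIs. A kept barcode was a member when it held at least 3 UMIs of Krt5, Krt14 and Krt17 together, at least 2 of Smoc2, F3 and Sfn together, at most 2 of Wfdc2, Gpha2, Dapl1 and Cbr2 together, at most 1 of Cck, Cnn1, Pcp4 and Igfbp2 together, at most 1 of Fcgbp, Sftpd, F5 and Ccl9 together, and 0 of Ptprc and Pecam1. This gave 183 members among 19592 kept cells. They numbered 54 of 8298 cells in the female library, 79 of 5582 in male library 1 and 50 of 5712 in male library 2, and values below are given in that order of libraries.

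Each library was made from the 6 glands of 3 pooled C57BL/6J mice, 2 months old and without treatment, digested with collagenase, dispase and DNase. The female library was prepared at another core and on another day than both male libraries, and since these cannot be told apart from sex no test of sex was made. The 3 libraries served as the replicates. The fits take out the level of each library, so the p-values rest on how much differences between groups varied among these 3 pools.

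The LG duct carries the tear fluid from the secretory acini to the eye. Its wider parts are layered: basal cells, which make the keratins Krt5, Krt14 and Krt17, rest on the basement membrane through hemidesmosomes, and luminal cells line the lumen. Myoepithelial cells make the same keratins and also a smooth-muscle contractile apparatus. Smoc2 is a secreted matricellular protein known as an intestinal stem cell marker, F3 is tissue factor, which starts blood coagulation, and Sfn is the stratifin 14-3-3 protein of stratified epithelium.

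The members were set beside 3 groups gated from the same libraries with rules made for this comparison. Wfdc2-type duct cells had at least 5 UMIs of the Wfdc2 group and at most 1 of Smoc2, F3 and Sfn (204, 32 and 23 cells). Myoepithelial-type cells had at least 3 keratin UMIs and at least 3 of the Cck group (226, 165 and 127 cells), and Ltf+-type cells had at least 5 of the Fcgbp group (26, 252 and 207 cells). The gates of the Wfdc2-type and Ltf+-type cells set no limit on keratins. Fibroblast-type cells had at least 10 UMIs of Col1a1, Col3a1 and Dcn together and at most 2 keratin UMIs (1738, 702 and 432 cells). They served as a background for genes that they should lack.

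Median depth over kept cells was 3302, 1891 and 1879 UMIs, and over the members 3522, 1783 and 1383.5 UMIs. The paper proposes a high level of free RNA, with acinar cells as its main source. Tear-product genes, most of them made by acinar cells, held 55.7%, 77.2% and 80.2% of the UMIs of kept cells. That total includes acinar cells, so it is not a share of free RNA. In a member these genes held a median of 22.1%, 47.2% and 43.7% of the UMIs. Levels are therefore given as CPM, a count scaled to the same total in each sum, over UMIs from genes other than tear products, in the sum over the cells of a group in a library. Between 11 and 17 kept barcodes were shared by any 2 libraries. A scrublet score marked 5, 2 and 4 of the members as possible doublets, and their median mitochondrial share was 3.57%, 1.91% and 2.10%. Among uncalled barcodes past the same limits (2902, 1413 and 1901), 0 met the gate.

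The genes of the gate describe the members and are not findings. Krt14 was counted in 180 of the 183 members, Krt17 in 145 and Krt5 in 132, and 103 held all 3 keratins. Smoc2 was counted in 128 members, Sfn in 123 and F3 in 69, and only 15 cells held all 3. The balance of these genes was not the same in the libraries. Smoc2 was found in 51 of 54, 49 of 79 and 28 of 50 members, and Sfn in 24, 57 and 42. Summed Smoc2 stood at 1389, 1009.8 and 1039 CPM, Sfn at 253, 1820.3 and 2101 CPM and F3 at 196, 638 and 577 CPM. Members with Smoc2 or F3 and no Sfn numbered 30, 22 and 8, and members with Sfn alone 2, 15 and 9. So the female members were gated mostly on Smoc2, and the male members more on Sfn than on Smoc2.

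Many members lay at the edge of the gate. The keratin limit of 3 UMIs held 2, 13 and 7 members. The limit of 2 UMIs of Smoc2, F3 and Sfn held 8, 25 and 25 members. Just outside, cells with 1 UMI of these 3 genes that met every other limit numbered 19, 45 and 41, and cells with 3 UMIs of the Wfdc2 group in place of at most 2 numbered 38, 9 and 11. At the inner edge, 32, 20 and 14 members held 2 UMIs of the Wfdc2 group and 9, 17 and 16 held 0.

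The upper limit on the Wfdc2 group set most of the gate's outcome in the deeper library. Cells that met every other limit but held 3 or more UMIs of the Wfdc2 group, called mixed-marker duct cells here, numbered 770, 34 and 21. Members were thus 6.55%, 69.9% and 70.4% of the keratin-positive cells with at least 2 UMIs of Smoc2, F3 and Sfn. When each cell was thinned to 600 UMIs of genes other than tear products, the same gate gave 105, 43 and 32 members and 61, 9 and 9 mixed-marker cells, and members were 63.3%, 82.7% and 78.0%. Keratin-positive cells with too few UMIs of both Smoc2, F3 and Sfn and the Wfdc2 group went from 34, 99 and 90 to 363, 113 and 83, and all keratin-positive cells from 1090, 284 and 223 to 700, 205 and 163. In the female library most of the mixed-marker cells thus left both groups at the lower depth, and the higher share of members came mainly from their loss.

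**Figure D1:**
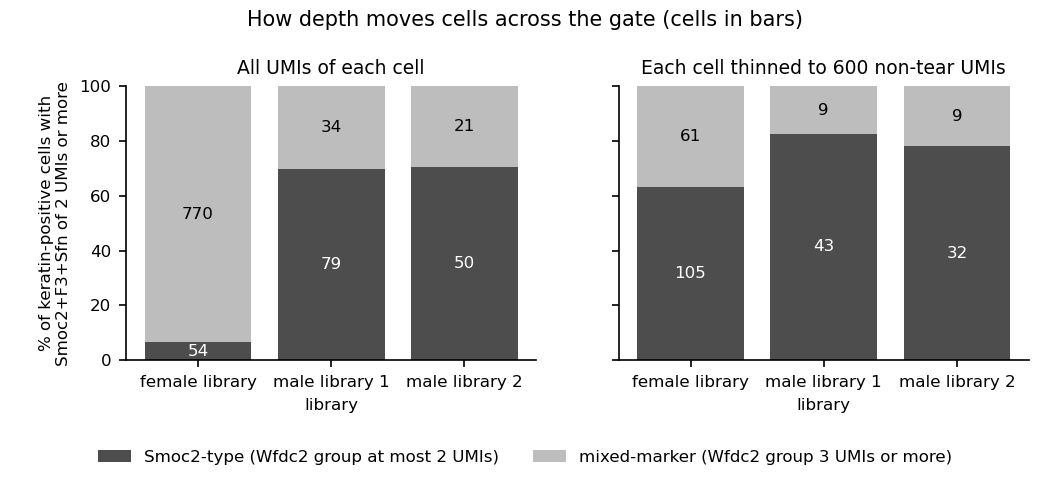
The bars give the percent of keratin-positive cells with at least 2 UMIs of Smoc2, F3 and Sfn that were Smoc2-type or mixed-marker, in each library, with numbers of cells inside. With all UMIs 770 of the female cells were mixed-marker, and after thinning to 600 non-tear UMIs 61 were.

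The share of the members among kept cells depended on the same limit. It was 0.651% (95% exact binomial interval 0.489 to 0.848), 1.42% (1.12 to 1.76) and 0.875% (0.650 to 1.15), intervals that cover counting error only. After thinning to 600 non-tear UMIs the shares were 1.35%, 0.994% and 0.757%, and after thinning all kept cells to 2000 UMIs they were 2.14%, 0.546% and 0.0362%. The female library had the lowest share as deposited and the highest after either thinning, so no order of the libraries is read from it.

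Markers of other cells were looked for in the members. The 6 fibroblast markers (Col1a1, Col1a2, Col3a1, Dcn, Lum and Pdgfra) gave 465, 4 and 22 UMIs, and 424 of the 465 female UMIs lay in 4 cells. The 5 contractile genes (Acta2, Tagln, Myl9, Tpm2 and Myh11) gave 205, 64 and 17 UMIs. Endothelial markers gave 2, 1 and 0 UMIs, immune markers 7, 5 and 12, mural markers 24, 2 and 0, and markers of cornea and conjunctiva 0 in each library. The 7 general epithelial markers were present in all libraries, with 402, 275 and 133 UMIs. After thinning to 1000 UMIs Epcam, an epithelial adhesion molecule, was found in 34.0%, 35.1% and 28.6% of members against 1.06%, 2.28% and 0.865% of fibroblast-type cells.

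The label of a basal cell was checked with 8 markers that the gate did not use, all of basal epithelium or its anchorage. Trp63, the transcription factor that maintains basal cells, stood at 470.2, 186 and 231 CPM in the members and at 0, 3.94 and 0 CPM in Ltf+-type cells. Col17a1, a hemidesmosome collagen, stood at 407, 292 and 254 CPM against 0, 0 and 5.08 CPM. The members were above the Ltf+-type cells in every library for both genes, without overlap. Against Ltf+-type cells all 8 markers were called higher by edgeR at an adjusted p under 0.05, beside 20.5% of the 3120 genes tested that were called higher.

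Against Wfdc2-type duct cells the same markers did not set the members apart. Trp63 was at 276, 361 and 172 CPM there, a log2 difference of 0.35 ± 0.28 (SE) with an edgeR adjusted p of 0.643, and Krt15, a keratin of basal layers, was at 196, 199 and 231 CPM against 122, 197 and 0 CPM (adjusted p = 0.454 by edgeR). Of the 8 markers 1, the integrin chain Itga6, was called higher (log2 0.96 ± 0.28, adjusted p = 0.0415), 1, its partner Itgb4, was called lower (log2 -1.04 ± 0.28, adjusted p = 0.0311), and 6 were not called. Their median log2 difference was 0.15, beside 0.05 over all genes tested, of which 3.97% were called higher and 0.609% lower. Against mixed-marker cells 0 of the 7 markers tested were called. For that reason the members are called here by Smoc2, a gene of their gate, and not as the basal cells of the duct.

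**Figure D2:**
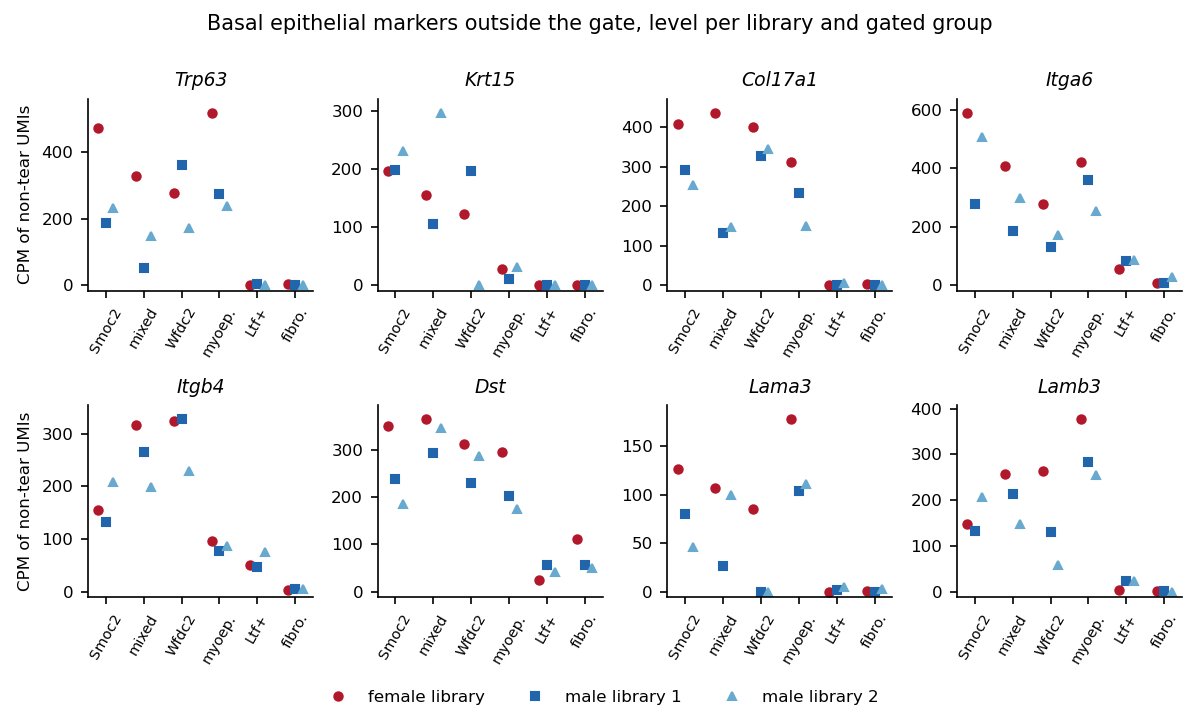
Each panel gives the CPM of UMIs from genes other than tear products for 1 of 8 basal markers outside the gate, with 1 point per library and gated group (linear axes). For Trp63, Col17a1 and Krt15 the Smoc2-type cells lie above the Ltf+-type cells in every library and overlap with the Wfdc2-type cells.

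The first comparison asked how the members differed from the Wfdc2-type duct cells, from which the basal markers had not set them apart. The members were higher in 19 of 33 tested immediate early and stress genes, Nfkbia among them, in the metallothioneins Mt1 and Mt2 and in the chemokines Cxcl1 and Cxcl10, and lower in Wfdc18, Fxyd2, Krt7, Ly6d and Cyp2f2. Of 3120 genes tested outside the gates, 143 (4.58%) were called, 124 (3.97%) higher in the members and 19 (0.609%) lower. With the free RNA profile of barcodes of 10 to 100 UMIs subtracted, 0 were called and 186 had an unadjusted p under 0.05 (453 as deposited). Scaling by total UMIs moved the median gene by 0.26 on the log2 scale. The Wfdc2-type sum of the female library rested in part on very deep barcodes, of up to 242242 UMIs, against at most 9178 among the female members, and with every cell thinned to 1000 UMIs 77 of 1140 genes were called, 68 of them higher. Of the 307787 UMIs of 12 acinar markers in the female Wfdc2-type cells, 177177 lay in 4 cells. In the female members 10654 of 35314 lay in 4 cells.

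NF-kB is a transcription factor held in the cytoplasm by inhibitors such as Nfkbia, which is itself one of its target genes, so that signal and brake are read out together. Nfkbia stood at 1116, 1103 and 1455 CPM in the members and at 136, 131 and 115 CPM in Wfdc2-type cells. Every member sum was above every Wfdc2-type sum. The log2 fold change was 2.89 ± 0.27 (SE), with an edgeR adjusted p of 8.94e-08. In the paper, from these same libraries, a duct cluster with higher Smoc2 had higher Nfkbia, so this difference was not independent of the gate. In cells thinned to 1000 UMIs a Nfkbia UMI was found in 43.4% (95% exact binomial interval 29.8 to 57.7), 35.1% (24.5 to 46.8) and 26.5% (14.9 to 41.1) of members, in 10.3%, 9.38% and 8.70% of Wfdc2-type cells and in 22.8%, 21.8% and 23.1% of fibroblast-type cells. Before thinning the shares of members were 70.4%, 53.2% and 40.0%, and those of Wfdc2-type cells 31.4%, 12.5% and 8.70%. Tnfaip3, the A20 brake on the same pathway, gave 31, 7 and 5 UMIs in the members and 13, 0 and 0 in Wfdc2-type cells (log2 3.08 ± 0.56, adjusted p = 0.00101). Tnfaip3 is in no fixed list and was chosen by the size of its change. Nfkbiz, of the same gene family as Nfkbia, differed by 1.60 ± 0.32 on the log2 scale.

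Cxcl1, a chemokine that draws neutrophils, stood at 442, 969.9 and 508 CPM against 16.3, 164 and 115 CPM. The groups did not overlap, and the log2 fold change was 3.80 ± 0.43 (edgeR adjusted p = 1.96e-06). Cxcl10, an interferon-induced chemokine for T cells, stood at 540.3, 252 and 185 CPM against 3.27, 98.4 and 57.5 CPM, with 77 of its 104 member UMIs in the female library (log2 4.84 ± 0.94, adjusted p = 0.00234). Without the female library the Cxcl10 call was lost. Of the 10 chemokine and cytokine genes tested these 2 were called higher and Cxcl17, an epithelial chemokine, was called lower (log2 -3.03 ± 0.61). The shares over all genes were 3.97% higher and 0.609% lower. Cxcl5 at 0.64 and Il33 at -1.18 on the log2 scale did not pass the test.

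The promoters of Cxcl1 and Nfkbia, both described above, are shown because each holds the letters of an NF-kB site, which are in capitals. The windows run from 250 bases before to 50 bases after the start of each gene in RefSeq (GRCm38.p6), and are printed on the strand of the gene. The Cxcl1 window is chr5:90890995-90891294 on the plus strand, and the Nfkbia window is chr12:55492598-55492897 on the minus strand. They were picked after the calls and the motif matches had been seen.
Cxcl1: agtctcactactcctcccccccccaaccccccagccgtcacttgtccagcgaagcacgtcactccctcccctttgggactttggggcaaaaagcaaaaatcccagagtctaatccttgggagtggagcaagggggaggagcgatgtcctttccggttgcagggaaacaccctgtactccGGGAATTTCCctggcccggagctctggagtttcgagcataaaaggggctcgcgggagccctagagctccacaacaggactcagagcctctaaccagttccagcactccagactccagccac
Nfkbia: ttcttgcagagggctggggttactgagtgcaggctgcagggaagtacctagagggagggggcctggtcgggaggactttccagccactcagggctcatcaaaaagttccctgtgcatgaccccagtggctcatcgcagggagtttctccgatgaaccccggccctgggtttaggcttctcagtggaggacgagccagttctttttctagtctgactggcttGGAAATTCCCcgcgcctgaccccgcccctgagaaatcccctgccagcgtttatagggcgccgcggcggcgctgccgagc
The site in Cxcl1 ends 61 bases before the start of the gene and the one in Nfkbia, read on the other strand, ends 19 bases before it. The NF-kB letters, those in capitals in the Cxcl1 window, searched on both strands, were in 29 of 32851 windows (0.0883%). The AP-1 letters TGACTCA were in 5.20% of windows and the cyclic AMP response letters TGACGTCA in 1.79%. Each motif was searched as a fixed run of letters and the NF-kB run is the longest, so these shares do not compare the motifs. Of the 21 genes of the immediate early and chemokine lists called higher, 17 had a window, 18 windows in all. Among these 18 the NF-kB letters were in 2, those above, the AP-1 letters in 1 (Cxcl10) and the cyclic AMP response letters in 1 (Btg2). A match is a run of letters and was not tested as a binding site, and no enrichment is read from these counts.

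The immediate early and stress list held 38 genes, many of which are also known to rise when tissue is digested into single cells. Of 33 tested, 19 were called higher in the members and 0 lower, beside 3.97% and 0.609% over all genes, with a median log2 difference of 1.19. In the paper, from these same libraries, the duct cluster with higher Smoc2 also had higher Nfkbia, Cxcl1, Atf3, Egr1 and Gadd45b than another duct cluster. That cluster had the highest score for a published list of dissociation-induced genes. The paper wrote that some of the differences may reflect stress after digestion. It also cited salivary gland work that placed Junb, Nfkbia, Klf6, Atf3 and Fos in basal duct identity. Smoc2 is a gene of the gate, so the counts of this list, here and below, were not independent of the choice of members. The same holds for Nfkbia and Cxcl1 above. The AP-1 gene Fos stood at 9972, 7494 and 6742 CPM against 2142, 4200.4 and 3218 CPM and the stress factor Atf3 at 3859.6, 5208 and 5795 CPM against 735, 1772 and 1781 CPM. Gadd45b, a stress sensor induced by NF-kB, stood at 1228, 2644 and 2170.2 CPM against 189, 689 and 575 CPM (log2 2.26 ± 0.28, edgeR adjusted p = 9.45e-06), and Socs3, a brake on cytokine receptors, at 779, 664 and 900.4 CPM against 126, 295 and 172 CPM. The groups did not overlap for any of these 4 genes. Of the heat shock genes the co-chaperone Dnajb1 was called (log2 1.19 ± 0.25), while Hspa1a, Hspa1b, Hspa8, Hsp90aa1 and Hsp90ab1 did not pass the test, with Hspa1a at 919, 558 and 669.5 CPM against 847, 952 and 1092 CPM. The list gave 20 called genes without cells that held fibroblast or contractile RNA and 20 in thinned cells, but 11 by DESeq2, 4 without the library term, and 5 or 0 with either profile of free RNA subtracted.

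**Figure D3:**
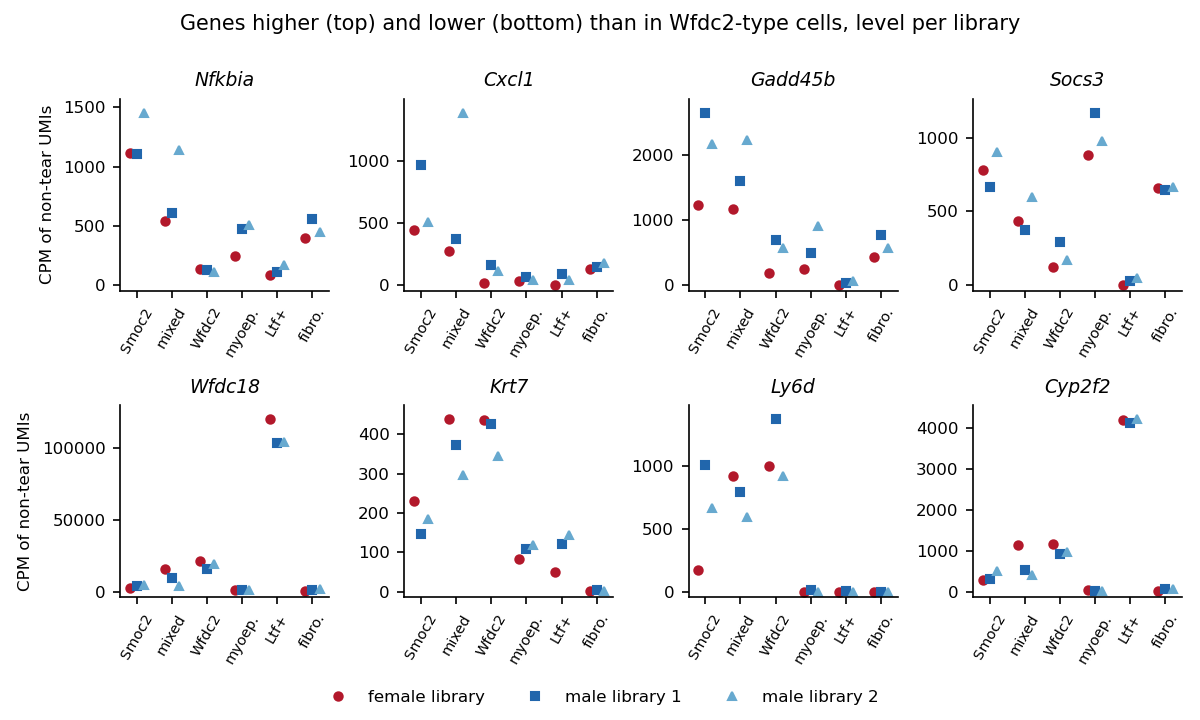
Each panel gives the CPM of UMIs from genes other than tear products for 1 gene, with 1 point per library and gated group (linear axes). In the top row the Smoc2-type points lie above the Wfdc2-type points of the same library, and in the bottom row below them.

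Per cell the members had the highest median of the 6 gated groups in each library. In cells thinned to 1000 UMIs the 38 genes took a median of 6.09%, 5.61% and 6.54% of a member's UMIs from genes other than tear products. The median was 1.52%, 2.37% and 3.24% in Wfdc2-type cells, 1.97%, 3.24% and 3.67% in myoepithelial-type cells, 0.343%, 1.09% and 1.03% in Ltf+-type cells, and 2.58%, 2.91% and 2.70% in fibroblast-type cells. Mixed-marker duct cells were nearest to the members, at 4.59%, 5.31% and 6.17%. All groups of a library came from 1 digested suspension, and whether these levels were present in the undigested gland was not tested.

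**Figure D4:**
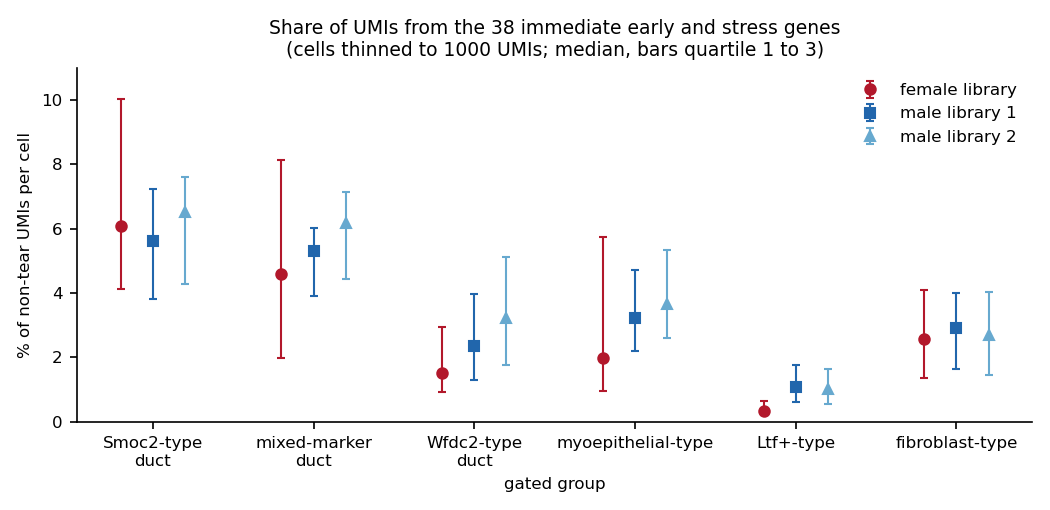
Points give the median percent of a cell's non-tear UMIs that came from the 38 immediate early and stress genes, with bars from the lower to the upper quartile, by gated group and library (cells thinned to 1000 UMIs). The medians of the Smoc2-type cells, 5.61% to 6.54%, were above those of the Wfdc2-type cells, 1.52% to 3.24%.

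Signals and surface proteins also differed. Growth factor and matricellular genes were higher in 5 of 13 tested, among them Nrg1, an ErbB ligand (2, 5 and 2 UMIs against 2, 0 and 0), the placental growth factor Pgf and Igfbp5, and 0 were called lower. Over all genes in this comparison 3.97% were called higher and 0.609% lower. Igfbp5 stood at 821, 53.1 and 208 CPM against 122, 98.4 and 57.5 CPM and was lower in the members of male library 1. Without cells that held fibroblast or contractile RNA only 1 gene of this list was called, and Igfbp5 fell from a log2 difference of 1.97 to 0.38. Thbs1, a matricellular protein and a gene of no fixed list, stood at 295, 465 and 623 CPM against 19.6, 131 and 287 CPM (log2 2.97 ± 0.45, adjusted p = 0.000158). Of 9 genes of antigen presentation tested 4 were called higher, beside 3.97% over all genes: H2-K1 and H2-D1 of class I, and H2-Aa and Cd74 of class II. Without cells that held fibroblast or contractile RNA 2 of the 9 were called. Immune markers gave 7, 5 and 12 UMIs in the members, 10 of the 12 in 1 cell, and their part in these calls was not tested. H2-K1 stood at 2021, 930.1 and 1478 CPM against 728, 788 and 517 CPM and Cd74 at 211, 412 and 439 CPM against 40.8, 32.8 and 0 CPM.

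Metallothioneins, which bind zinc and copper, were higher as well. Mt1 stood at 1775, 8716 and 7249.6 CPM against 663, 1509.5 and 1322 CPM, and Mt2 at 709, 1687 and 1524 CPM against 206, 361 and 229.8 CPM (log2 1.91 ± 0.28, adjusted p = 8.05e-05). Both were the only xenobiotic and redox genes of 20 tested that were called higher, beside 3.97% over all genes. Gstm1, Cyp2f2 and Cat were called lower, beside 0.609%. Mt2 was called in 16 of its 17 alternative analyses.

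Of 13 contractile genes tested 7, and all 3 fibroblast markers tested (Col1a2, Col3a1 and Dcn), were also called higher, beside 3.97% over all genes. Acta2, smooth-muscle actin, gave 50, 19 and 3 UMIs in the members and 16, 0 and 0 in Wfdc2-type cells, and Dcn, a fibroblast proteoglycan, gave 183, 3 and 10 against 49, 0 and 0. When cells with 3 or more UMIs of either marker set were left out, 4 of 13 contractile genes and 1 fibroblast marker were still called, and 103 genes in all (87 higher, 16 lower). Acta2 then had a log2 difference of 1.59 with an adjusted p of 0.461, down from 3.29.

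Among the genes lower in the members were a secreted protein, a subunit of ion transport and a keratin. Wfdc18, a secreted protein of the WAP family, stood at 2477, 4066 and 4941 CPM in the members and 21452, 15883 and 19479 CPM in Wfdc2-type cells (log2 -2.26 ± 0.33, edgeR adjusted p = 8.43e-05). Fxyd2, a subunit that tunes the sodium pump, gave 7, 4 and 2 UMIs against 217, 11 and 2 (log2 -2.80 ± 0.44, adjusted p = 0.000208). Krt7, a duct keratin, was at 232, 146 and 185 CPM against 438, 427 and 345 CPM (log2 -1.22 ± 0.29). For all 3 genes every member sum was below every Wfdc2-type sum. In Ltf+-type cells Wfdc18 was at 120104, 103654 and 104286 CPM.

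Genes tied to progenitors in other glands were not called higher than in Wfdc2-type cells. Ly6d, a surface protein of luminal progenitors in the prostate, stood at 175, 1009.8 and 669.5 CPM against 1004, 1378 and 919 CPM (log2 -1.24 ± 0.33, adjusted p = 0.0259), with the female members far below the male members. Ly6a, which encodes Sca-1, stood at 288, 239 and 462 CPM against 473, 558 and 919 CPM (log2 -0.95 ± 0.26). Of 6 progenitor-associated genes tested, 1 was called lower, this one, and 0 higher, beside 0.609% and 3.97% over all genes. Kit, a receptor of epithelial progenitors, gave 1, 1 and 0 UMIs in the members. Mki67, a marker of dividing cells, was found in 0 of 53, 0 of 77 and 0 of 49 members thinned to 1000 UMIs. With 3 counts as the limit this allows up to 5.66%, 3.90% and 6.12% of members with a Mki67 UMI at that depth, and it does not limit the share of dividing cells.

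The mixed-marker duct cells were compared after the effect of depth on the gate had been seen. Of 988 genes tested 27 (2.73%) were called, 22 (2.23%) higher in the members and 5 (0.506%) lower. Of 30 tested immediate early and stress genes 8 were called higher, with small differences, such as Nfkbia with 546, 612 and 1141 CPM in mixed-marker cells (log2 0.87 ± 0.18, edgeR adjusted p = 0.00877) and Fos with a log2 difference of 0.53 ± 0.12. The list's median was 0.25, against 1.19 in the comparison with Wfdc2-type cells, which used the same member sums. Of 4 chemokine and cytokine genes tested, Cxcl1 and Cxcl10 among them, 0 were called, with a median log2 difference of 0.07. Igfbp5 had the largest called difference of the named genes, 117, 4 and 9 UMIs against 275, 0 and 0 (log2 3.00 ± 0.36), with most of these UMIs in the female library. The 1 fibroblast marker tested, Dcn, was also called higher (log2 1.84 ± 0.26, edgeR adjusted p = 7.03e-05). Without cells that held fibroblast or contractile RNA Igfbp5 and Dcn did not pass the filter on low counts. The 5 lower genes included Cdo1, cysteine dioxygenase (log2 -1.79 ± 0.34), Wfdc18 and Krt7. Without the female library 0 genes were called and 58 had an unadjusted p under 0.05, and without the library term 0 were called, with 27 under 0.05. DESeq2 called 1 gene and scaling by total UMIs 2. Without cells that held fibroblast or contractile RNA 9 were called, of which 1 was an immediate early or stress gene, and without male library 2 9 were called.

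**Figure D5:**
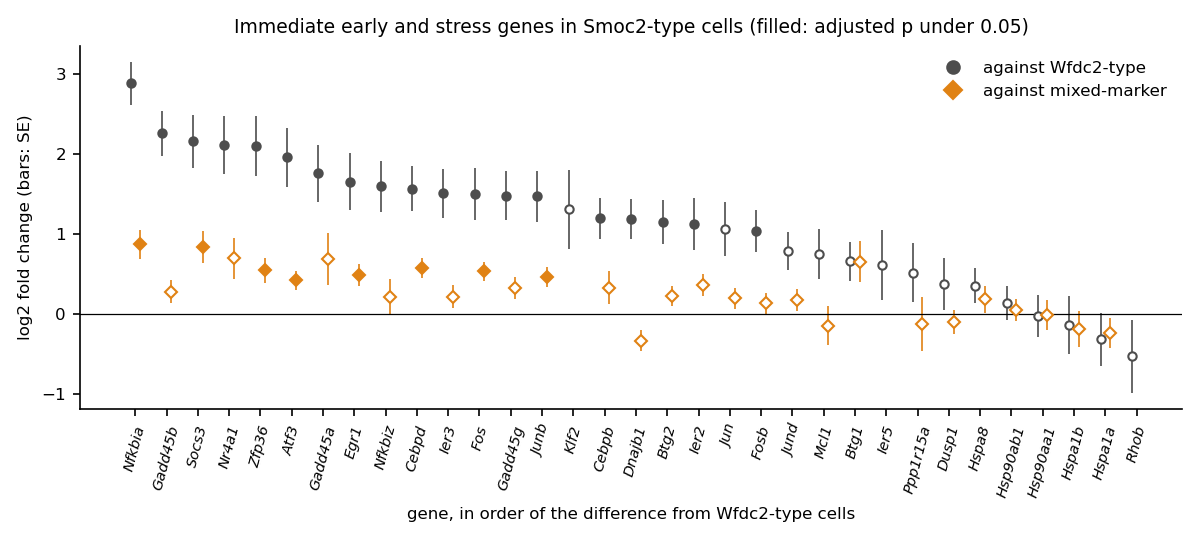
Points give the log2 fold change of Smoc2-type cells with its SE for the 33 immediate early and stress genes tested, against Wfdc2-type cells (circles) and against mixed-marker cells (diamonds, where tested), filled where the edgeR adjusted p was under 0.05. Against Wfdc2-type cells 19 genes were called higher and against mixed-marker cells 8.

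The second comparison set the members against myoepithelial-type cells, which share their keratins. The members were higher in Ly6d, Ly6a, Tfcp2l1, Cldn4, Cldn7, Cldn8 and chemokines, and lower in the contractile apparatus, Kitl, Nrg1 and Sox10. Of 3120 genes 487 (15.6%) were called, 240 (7.69%) higher and 247 (7.92%) lower, and scaling by total UMIs moved the median gene by -0.16 on the log2 scale. All 13 contractile genes tested were lower, with Acta2 at 351, 252 and 69.3 CPM in the members and 6766, 8895 and 8507 CPM in myoepithelial-type cells (log2 -4.99 ± 0.35, edgeR adjusted p = 1.08e-10). The gates of both groups used Cnn1, a smooth-muscle gene, so the contractile differences were not independent of the choice of cells. The list's median log2 difference was -3.98, and -3.55 with Actg2 and Lmod1, which had 0 UMIs in the members, set to the bound from 3 counts over the group. Lmod1, a nucleator of muscle actin, gave 0 UMIs in the members and 369 in myoepithelial-type cells, at least 33.2-fold lower. Aqp4 and Itga1 also had 0 UMIs in the members, at least 13.1-fold and 15.8-fold lower.

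Surface genes of the duct were also higher than in myoepithelial-type cells. Ly6d gave 25, 76 and 29 UMIs in the members and 0, 2 and 0 in myoepithelial-type cells, a ratio of 241 (95% exact counting interval 65.3 to 2008). Ly6a stood at 288, 239 and 462 CPM against 7.60, 16.4 and 47.7 CPM (log2 4.28 ± 0.38). The transcription factor Tfcp2l1 stood at 618, 465 and 392 CPM against 1.52, 16.4 and 7.96 CPM (log2 6.57 ± 0.41, adjusted p = 1.13e-11). No member sum overlapped with a myoepithelial-type sum for these 3 genes. Of 6 tight junction genes tested 4 were called higher, among them Cldn4 (7, 19 and 6 UMIs against 0, 1 and 0), while Cldn10 was called lower and Cldn3 was not called. Of 19 epithelial transcription factors 9 were called higher, among them Klf5, Elf3 and Klf6, while Sox10 had 0 UMIs in the members against 115 (at least 10.4-fold lower). The shares over all genes were 7.69% higher and 7.92% lower.

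Of 10 chemokine and cytokine genes tested 5 were higher than in myoepithelial-type cells and 0 lower, beside 7.69% and 7.92% over all genes. Cxcl1 stood at 35.0, 65.5 and 39.8 CPM there, a log2 difference of 3.72 ± 0.33 (adjusted p = 6.77e-09), and Cxcl5, which also draws neutrophils, gave 11, 11 and 10 UMIs in the members against 1, 0 and 0. Il33, an alarmin of barrier epithelium, gave 9, 3 and 3 UMIs against 1, 0 and 0. Growth factors went the other way: 1 of 13 was called higher, Ccn1, and 6 lower. Nrg1 gave 2, 5 and 2 UMIs in the members against 211, 67 and 41 in myoepithelial-type cells (log2 -3.21 ± 0.39), and Igfbp5 stood at 3736, 2276 and 1966 CPM there (log2 -2.91 ± 0.35). Kitl, the ligand of Kit, stood at 1459.6, 977 and 907 CPM there and at 232, 39.9 and 0 CPM in the members (log2 -3.27 ± 0.37, adjusted p = 3.43e-07). Krt15 was higher in the members in every library, with 28.9, 10.9 and 31.8 CPM in myoepithelial-type cells (log2 3.02 ± 0.42, adjusted p = 1.19e-05). Most of the 8 basal markers outside the gate, of which Krt15 is 1, did not separate these groups. In this comparison 2 of the 8 passed as higher in the members, Krt15 among them, 1 passed as lower and 5 were not called. The median log2 difference of the 8 was 0.32.

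Immediate early and stress genes were again higher, in 16 of 33 tested (7.69% over all genes), with 0 lower (7.92%) and a median log2 difference of 0.82. Nfkbia (log2 1.70), Gadd45b (2.04) and Atf3 (1.73) were called, while Fos (0.38), Egr1 (0.58) and Socs3 (-0.31) did not pass the test. These comparisons share the sums of the members, so their values stand side by side without a test between them.

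The third comparison set the members against Ltf+-type cells, a ductal epithelial group gated on Fcgbp, Sftpd, F5 and Ccl9. Of 3120 genes 1103 (35.4%) were called, 639 (20.5%) higher in the members and 464 (14.9%) lower. Scaling by total UMIs in place of TMM moved the median gene by 0.94 on the log2 scale and the calls to 1322 higher and 94 lower, so a direction near 0 depends on the scaling here. The Ltf+-type cells of the female library were few and deep, 26 cells with a median of 8838.5 UMIs, of which 9 were marked as possible doublets, and without that library 730 of 2062 genes were called, 375 higher and 355 lower.

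Genes of adhesion to the basement membrane were higher together. All 12 tested genes of basal adhesion and hemidesmosomes were called higher, beside 20.5% of all genes. Their median log2 difference was 3.01, beside 0.07 over all genes. Cdh3, the P-cadherin of basal cells, gave 10, 6 and 2 UMIs in the members and 0 in Ltf+-type cells, at least 26.2-fold higher, and Krt15 gave 28, 15 and 10 UMIs against 0, at least 77.1-fold higher. Trp63 gave 67, 14 and 10 UMIs against 0, 2 and 0, a ratio of 199 (95% exact counting interval 53.4 to 1666). Pdpn, podoplanin, gave 65, 20 and 10 UMIs against 0, 0 and 1. The simple-epithelium keratins Krt8 (log2 -2.60 ± 0.22) and Krt18 (log2 -3.09 ± 0.26) were lower in the members, also with total UMIs (-1.70 and -2.19).

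Signals and receptors were higher in the members than in Ltf+-type cells, and most genes of mucosal defence were lower. In all 10 of 13 growth factor and matricellular genes, 6 of 9 growth factor and hormone receptors, 5 of 6 modulators of Wnt and BMP and 28 of 33 immediate early and stress genes were called higher, and 0 of these lower. The shares over all genes, for these and the lists below, were 20.5% higher and 14.9% lower. Egfr, Fgfr1 and Fgfr2 were among the receptors. Of 11 genes of mucosal defence 8 were lower, among them Dmbt1, a mucosal scavenger protein, with 3, 0 and 0 UMIs in the members against 375, 696 and 654, and Wfdc18 (log2 -5.21 ± 0.37, adjusted p = 3.37e-11). Of 11 transport genes 6 were lower, among them the water channel Aqp5 and the chloride channel Ano1, which had 0 UMIs in the members against 113. All 10 acinar markers tested, Aqp5 and Pigr of these lists among them, were also lower than in Ltf+-type cells, with a median log2 difference of -1.86, and their part in these counts was not tested. Kit gave 23, 75 and 43 UMIs in Ltf+-type cells against 1, 1 and 0 in the members (log2 -4.23 ± 0.67, adjusted p = 1.55e-05), and Kitl was called higher in the members (log2 3.91 ± 0.69), with 33, 3 and 0 UMIs, so nearly all of them in the female library.

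Some lists gave few tested genes or few calls against Wfdc2-type cells. Beside F3 itself, 4 of 16 genes of the coagulation and plasminogen system passed the filter on low counts, of which 0 were called against Wfdc2-type or myoepithelial-type cells and 4 (Serpinb5, Anxa2, S100a10 and F2r) were called higher than in Ltf+-type cells. Of 16 Notch genes 2, and of 14 cycling genes 2, passed the filter. Of 11 S100 and annexin genes tested 1, Anxa8, was called lower than in Wfdc2-type cells (log2 -2.40 ± 0.51) and with Anxa1 it was called higher than in myoepithelial-type cells (log2 4.09 ± 0.99). S100a1 was called lower than in myoepithelial-type cells. Against Ltf+-type cells 5 of the 11 were called higher (S100a6, S100a10, S100a16, Anxa2 and Anxa8), beside 20.5% over all genes, and S100a1 was called lower. Low counts in these lists limit what can be said, since the members held 202687, 155147 and 100189 UMIs in all.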

How the data were processed

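Lacrimal gland cells from 3 libraries were measured by droplet single-cell RNA-seq. The deposited counts of UMIs were made by the authors with Cell Ranger 6.1.2 and the mm10 genome, per the labels. Removal of free RNA and of doublets, which the study's methods describe, comes after these files.

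Counts were summed over the cells of each gated group in each library, leaving out sums of under 10 cells. Sums were tested in edgeR 4.0.16 (R 4.3.3) by the quasi-likelihood test with library as a block, TMM scaling, the default filter on low counts and Benjamini-Hochberg adjustment, with calls at an adjusted p under 0.05, and the 20 gate genes were left out of the calls. The mixed-marker comparison was fitted on its own 2 groups. The other comparisons came from 1 fit of all their gated groups with a shared spread, so groups outside a compared pair also entered its error. Both arms of a library come from 1 cell suspension, which is where the block comes from. Scrublet in scanpy 1.11.5 marked doublets, and intervals are exact binomial ones from scipy 1.17.1. Scripts were tested on simulated data.

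The members and gene lists were chosen with earlier results of these data known. Genes named were, per comparison, up to 10 called higher and 6 called lower by size of change, with at least 30 UMIs in the higher arm and the same direction in every library, and members of the lists. Gate genes, tear products, mitochondrial, ribosomal, hemoglobin and sex-linked genes and unnamed models were left out of the first part of this rule. Which list genes to describe was decided after their values were seen. Alternatives were DESeq2 1.42.0, other scaling and filters, no block, each library left out, doublets or cells over 5% mitochondrial UMIs removed, thinning, stricter gates and free RNA subtracted.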

Additional observations from a re-analysis of the deposited data

Results flagged for a closer look

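Sbsn, which encodes suprabasin, a secreted protein of stratified epithelium, moved in opposite directions in the sexes when Smoc2-type cells were set against Ltf+-type cells. The log2 ratio of the members to Ltf+-type cells was 1.31 for the female sum, against -4.20 and -2.13 for the sums of males 1 and 2. These ratios rest on 8, 0 and 1 UMIs in the members, against 4, 88 and 53 in Ltf+-type cells, and 1 female member held 7 of the 15 female UMIs of the keratinised skin markers. The difference was not tested, since there was 1 female library, prepared at another core and on another day.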

How the results depend on the processing

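Against Wfdc2-type cells 143 genes were called, with 70 by DESeq2, 91 of 848 tested with only the 2 groups fitted, 77 in thinned cells, 0 and 45 with free RNA subtracted by the profile of barcodes of 10 to 100 UMIs and by that of denser barcodes (added after seeing the data), and 41 (without the female library) to 133 with a library left out. With no replicate block, so without the pairing of both arms of a library, 37 were called, and against mixed-marker cells 0 of 27. Against myoepithelial-type cells 487 (240 higher, 247 lower) became 299 with stricter gates (70 higher, 229 lower), 253 in thinned cells, 124 with free RNA subtracted by the profile of 10 to 100 UMIs, and 355 to 474 with a library left out. Against Ltf+-type cells 1103 (639 higher, 464 lower) became 821 with stricter gates (300 higher, 521 lower), 468 in thinned cells, 533 with the same free RNA subtracted, and 730 to 1158 with a library left out. Against mixed-marker cells 27 became 2 with total UMIs, 1 by DESeq2, 9 without cells that held fibroblast or contractile RNA, and 0 to 29 with a library left out. Thinning, left-out libraries, stricter gates, fits of 2 groups and free RNA subtraction also changed how many genes were tested, and the cause of the shifts was not tested. The mean share of members was 0.212% with stricter gates, which gave no value against Wfdc2-type cells, since too few male cells were left.

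Some genes changed direction. With stricter gates, log2 differences from myoepithelial-type cells were -0.13 for Bcam, -0.072 for Krt18, -0.12 for Pglyrp1, -0.58 for Nupr1 and -1.55 for Lpo, and from Ltf+-type cells -0.47 for Tfcp2l1, -0.089 for H2-D1, -0.18 for Dsp, -0.24 for Tpm1 and Car12 and -0.17 for Cd9. With total UMIs, differences from Ltf+-type cells were 0.90 for Hspa8, 0.87 for Hsp90ab1 and 0.20 for Sod1, and with free RNA of 10 to 100 UMIs subtracted 0.15 for Sod1 and 14.17 for Mucl2. With a library left out, Cald1 against Wfdc2-type cells ranged from -0.028 to 2.30, and Col1a2 against myoepithelial-type cells from -0.16 to 3.38, lowest in both without the female library.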
